A study of Mus musculus with 21 samples.

Results

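The colon of CDX2-VDR transgenic mice was compared 6 h after the last of 3 injections of 1,25-dihydroxyvitamin D3 (1,25D3) with the colon of uninjected mice of the same genotype. These are 7 of the 21 RNA libraries of the series, 3 from treated and 4 from uninjected mice, chosen by their labels. All 7 mice were C57BL6J, lacked their own vitamin D receptor (VDR), and carried human VDR under the CDX2 promoter, which per the labels is expressed in the distal intestine alone. The treated mice received 1 ng of 1,25D3 per g of body weight 48, 24 and 6 h before tissue was taken, and the labels make all 3 of them male and 9 weeks old. Of the uninjected mice, the labels make numbers 1 to 3 female and 9 weeks old, and number 4 male and 10 weeks old. Injection itself, sex and age therefore coincide in part or in full with 1,25D3 and cannot be told apart from it here. Values are FPKM (fragments per kilobase of transcript, scaled to each library's mapped fragments), listed by library in the order treated 1, 2 and 4, then uninjected 1, 2, 3 and 4. Differences are log2 differences, treated minus uninjected, of FPKM + 0.5, with a 95% interval. Of 21441 genes in the table, 12567 averaged 1 FPKM or more across these 7 libraries and were tested with limma.

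VDR is a nuclear receptor that pairs with a retinoid X receptor and, once it has bound 1,25D3, changes the transcription of target genes. In the intestine it is known for the genes of active calcium uptake, namely the apical channel Trpv6 and the intracellular calcium carrier S100g (calbindin-D9k), and for Cyp24a1, the hydroxylase that breaks down 1,25D3. The colon expresses the receptor too, and the series was designed, per its title, around what the distal gut contributes to calcium balance and bone.

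The libraries also differed in depth and in transcripts of other tissues. Reads in the genes whose whole reads could be recovered from FPKM steps, a lower limit of depth, numbered 7857000 to 23441000 in treated and 8352000 to 31684000 in uninjected libraries. Pancreatic acinar transcripts took 3.74% of all FPKM in treated 4 and 13.9% in uninjected 3, against at most 0.102% in the other 5. Treated 4 also held transcripts typical of the seminal vesicle (Svs5 6200, Svs4 5369 and Svs2 2116 FPKM, each at most 2.26 FPKM in the other 6). Transcripts typical of the liver were at 7.68 (Hpx), 30.9 (Alb) and 6.05 FPKM (Mup3) in treated 1 and at 406, 334 and 305 FPKM in uninjected 3, against 1.35 FPKM or less in the other 5. Smooth muscle markers summed to between 1641 and 2077 FPKM in treated libraries, against 9463 and 7033 FPKM in uninjected 1 and 2, 888 FPKM in uninjected 3 and 2653 FPKM in uninjected 4, although the labels call the tissue intestinal epithelium. In treated 1, Hoxb13, a homeobox gene of the posterior body, was at 0.106 FPKM and the transglutaminase Tgm3 at 0.527 FPKM, against at least 41.2 and 42.6 FPKM in the other 6 libraries. The Y-linked helicase gene Ddx3y was at 12.1 FPKM in uninjected 3, which is labelled female, and at 0.0989 and 0.212 FPKM in uninjected 1 and 2. The acinar, liver and seminal vesicle genes are those of other organs, and their part in the results was not tested. Values with single libraries left out are given beside results they moved most. The seminal vesicle, liver and colon position genes were picked after their values were seen.

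Across all genes, no difference passed the threshold. With limma and Benjamini-Hochberg adjustment, 0 of 12567 genes (0.0%) had an adjusted p under 0.05, and the smallest adjusted p was 0.171, for Cyp24a1 and Retnlg. At an unadjusted p under 0.05 stood 143 genes (1.14%), of which 119 were higher in treated colon (0.947%) and 24 were lower (0.191%). The median standard error was 0.398, and the median 95% interval, per gene and unadjusted, reached 0.9 to either side on the log2 scale. At the adjusted threshold even far larger differences were not called, up to the 4.54 of Cyp24a1. The 3 treated libraries were all above the 4 uninjected ones for 129 genes (1.03%) and all below them for 43 genes (0.342%), together 1.37%. Those 129 had a median log2 difference of 1.09, with 77 over 1, and those 43 a median of -0.435, with 9 beyond -1. Over all tested genes the median was -0.008, with 6182 genes higher (49.2%) and 6385 lower (50.8%). The plot of difference against level shows this lopsided shape.

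**Figure D1:**
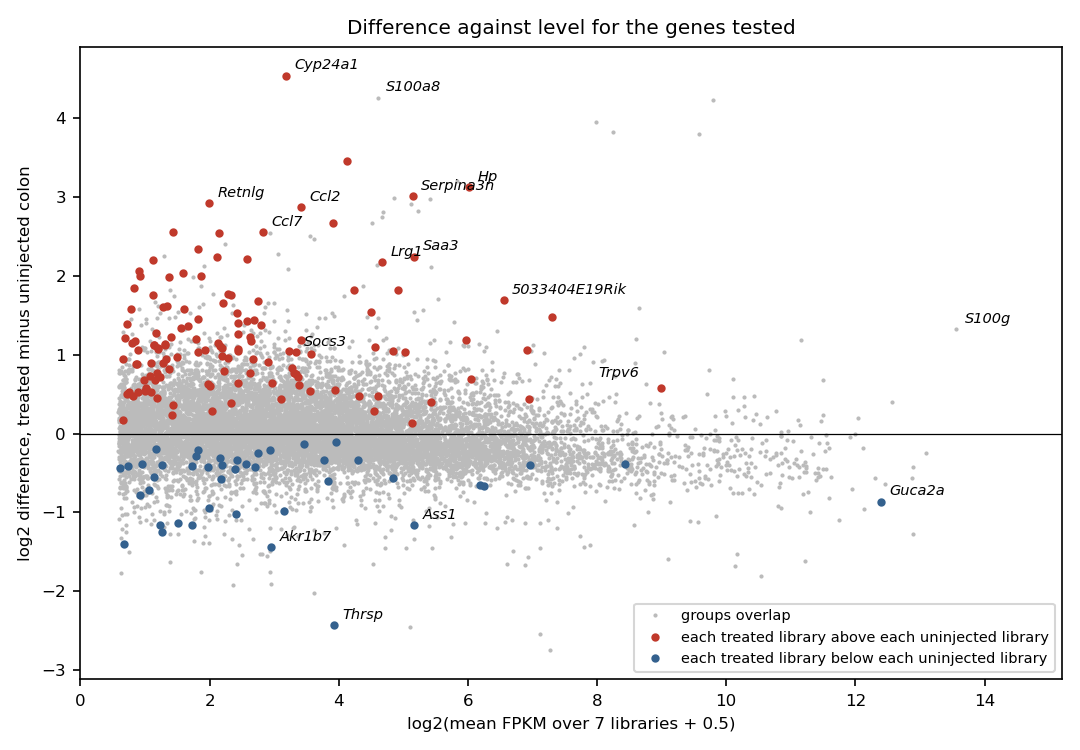
Log2 difference, treated minus uninjected colon, against log2 of the mean FPKM + 0.5 over 7 libraries, for each of the 12567 genes tested; red points are the 129 genes with each treated library above each uninjected one, blue points the 43 genes with each treated library below, and grey points the genes whose groups overlap. Red points reach 4.54 (Cyp24a1) and blue points -2.43 (Thrsp).

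Cyp24a1, the enzyme that inactivates 1,25D3 and a classic VDR target, had the largest difference of all genes tested. It was at 28.7, 21.6 and 8.43 FPKM in treated colon, against 0, 0.287, 1.2 and 0.0284 FPKM in uninjected colon. The groups did not overlap, and the lowest treated library stood well above the highest uninjected one. The log2 difference was 4.54 (SE 0.562, 95% interval 3.27 to 5.81; adjusted p 0.171, limma). Without uninjected 3 it was 4.92 with an adjusted p of 0.0363 (limma). Without both uninjected 3 and treated 4, a fit chosen after the values were seen, it was 5.42 with an adjusted p of 0.0109 (limma). With any other single library left out no gene passed, and the smallest adjusted p over all genes ran from 0.264 to 0.95 (limma). Cyp24a1, at chr2:170308208-170322645 on the minus strand of mm9, was listed at 0 in all 4 colon libraries of the untreated KO mice, whose genotype is Villin-CreERT2 VDR f/f. The labels make KO mouse 1 male and 9 weeks old, and KO mice 2 to 4 male and 11 weeks old. Between KO and transgenic colon, here and below, genotype therefore coincides in part with sex and age and cannot be told apart from them.

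The other genes of vitamin D's own pathway showed no such separation. Vdr itself was at 37.7, 19.5 and 30.4 FPKM in treated colon, against 34.3, 19.5, 12.8 and 33.2 FPKM in uninjected colon, so the groups overlapped throughout. Its log2 difference was 0.28 (95% interval -0.66 to 1.22), and 0.00 without uninjected 3. The mean of Vdr in KO colon was 22.1 FPKM after rescaling, so this gene-level value does not separate the transgene from other receptor RNA. Of 16 genes for receptor partners, coregulators and hydroxylases, 12 were tested, 9 of them higher and 3 lower, with a median of 0.11 that ran from -0.09 to 0.33 as single libraries were left out. Cyp24a1 was the one tested member of the list whose groups did not overlap (8.3%, against 1.03% of all genes tested). Cyp27b1, the enzyme that makes 1,25D3, stayed between 0.1 and 0.168 FPKM in the 7 libraries.

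Of the genes of active calcium uptake, S100g and Trpv6 averaged higher in treated colon, but within wide overlap. S100g was at 12270, 25120 and 8949 FPKM in treated colon, against 5751, 1954, 27300 and 3194 FPKM in uninjected colon. The highest of all 7 was an uninjected library, number 3, and the 3 treated libraries stood above the other 3. The log2 difference was 1.33 (95% interval -0.61 to 3.26; adjusted p 1, limma), 2.09 without uninjected 3 and 0.82 without uninjected 2. Trpv6 was at 219, 365 and 251 FPKM in treated colon, against 379, 134, 236 and 75.7 FPKM in uninjected colon. Here uninjected 1 was the highest, and the difference was 0.64 (95% interval -0.55 to 1.84), or 1.02 without uninjected 1, 0.25 without uninjected 4 and 1.84 with the labelled sex as a covariate. With that covariate, here and below, the contrast rests on uninjected 4, the only uninjected library labelled male. In KO colon S100g averaged 63.5 FPKM and Trpv6 0.396 FPKM, below each of the 7 transgenic libraries.

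The remaining calcium genes were low or overlapped between the groups. Trpv5, the renal relative of Trpv6, was below the filter at 0.633, 0.185 and 0.64 FPKM in treated colon, against 0.251, 0.0196, 0.366 and 0.0736 FPKM in uninjected colon. An exact two-sided permutation test of its mean gave p = 0.171, where 3 against 4 libraries can give no less than 0.0571. Atp2b1, the pump that moves calcium out across the basolateral membrane, was at 114, 91.2 and 139 FPKM in treated colon, against 48.9, 38.4, 127 and 91.9 FPKM in uninjected colon. Its groups overlapped, with a log2 difference of 0.72 (95% interval -0.27 to 1.71), or 0.44 without uninjected 2. Of 15 listed calcium genes 7 were tested. S100g, Trpv6 and Atp2b1 were higher and the other 4 lower, with a list median of -0.03 that ran from -0.26 to 0.22 as single libraries were left out.

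Slc30a10, a manganese exporter that the protocol measured by qPCR, stood near separation. It was at 106, 42.2 and 136 FPKM in treated colon, against 38.5, 30.7, 34.8 and 56.1 FPKM in uninjected colon. Treated 1 and 4 were above every uninjected library, while treated 2 was below uninjected 4. The log2 difference was 1.11 (95% interval 0.14 to 2.08; adjusted p 1, limma), and 0.59 with the labelled sex as a covariate. Slc39a8, an importer of zinc and manganese, was at 30.7, 12.4 and 34 FPKM in treated colon, against 3.5, 9.86, 14.8 and 19.9 FPKM in uninjected colon, again with 1 treated library inside the uninjected range. Of 22 tested genes of zinc and manganese transport, 14 were higher and 8 lower, with a median of 0.14 and 0 without overlap. Slc37a2, a sugar-phosphate exchanger on the same qPCR panel, was at 30.9, 52.5 and 32.8 FPKM in treated colon, against 165, 23.3, 12.1 and 8.34 FPKM in uninjected colon. The treated libraries lay inside the uninjected range, set at its top by uninjected 1, and the difference of 0.57 became 1.46 without that library and 0.05 without uninjected 4. Phosphate, magnesium and iron genes had list medians of 0.15, -0.17 and -0.03, and tight junction genes 0.02, all with 0 members whose groups did not overlap. As single libraries were left out, the sign of the phosphate, iron and tight junction medians changed.

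Of 18 genes known as VDR targets in other tissues, 16 were tested, 7 higher and 9 lower, with a median of -0.11 that became 0.18 without uninjected 3. Thbd, the anticoagulant receptor thrombomodulin, was the one whose groups did not overlap (6.2% of those tested, against 1.03% of all genes). It was at 7.47, 7.45 and 9.48 FPKM in treated colon, against 3.71, 5.81, 2.4 and 4.64 FPKM in uninjected colon. Spp1, the secreted matrix protein osteopontin, was at 8.92, 15.3 and 12.6 FPKM in treated colon, against 0.442, 0.734, 10.6 and 1.13 FPKM in uninjected colon. Uninjected 3 alone among the uninjected libraries reached the treated range. The log2 difference of Spp1 was 2.55 (95% interval 0.79 to 4.30; adjusted p 0.9995, limma). Without uninjected 3 it was 3.34 with an adjusted p of 0.0363 (limma), and it passed with no other single library left out. The cell cycle inhibitor Cdkn1a, at 172, 142 and 134 FPKM in treated colon against 322, 234, 122 and 155 FPKM in uninjected colon, overlapped with a difference of -0.39.

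**Figure D2:**
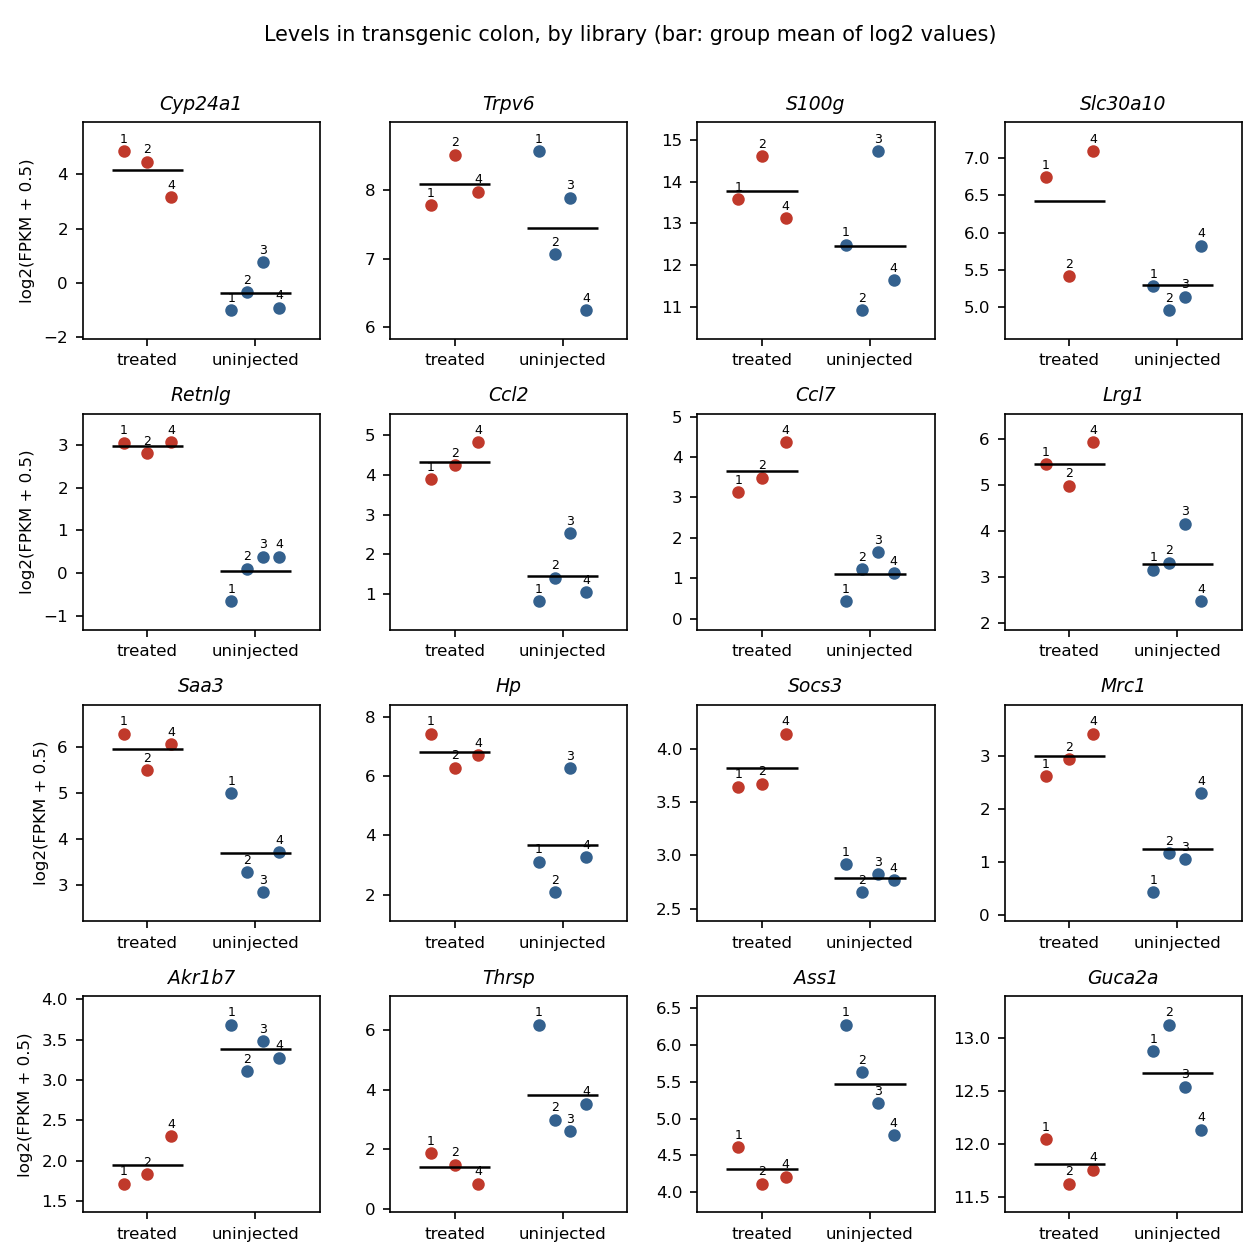
Log2(FPKM + 0.5) of 16 genes in each colon library, treated in red at the left and uninjected in blue at the right, with the library number at each point and the group mean as a bar. Cyp24a1, Retnlg, Ccl2, Ccl7, Lrg1, Saa3, Hp, Socs3 and Mrc1 have each treated point above each uninjected one, Akr1b7, Thrsp, Ass1 and Guca2a have each below, and Trpv6, S100g and Slc30a10 overlap.

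Of 39 gene lists, that of acute phase genes had the most members whose groups did not overlap. Acute phase proteins are secreted in inflammation and infection, classically by the liver under interleukin 6 and Stat3 and locally by epithelium and other cells. Of 17 listed genes 14 were tested, 12 higher and 2 lower, with a median of 1.03, against -0.01 over all genes. The groups did not overlap for 6 of the 14 (42.9%), all higher in treated colon, against 1.03% of all genes tested. The 39 lists were chosen with earlier results of these data known. This share and those of other lists therefore describe the lists and test nothing. None passed the threshold. With each library left out in turn the list's median stayed between 0.68 and 1.28.

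To show the regulatory sequence at the genes of this group, the promoters of those 6 genes were looked up in RefSeq's GRCm38.p6 annotation, which gave 4 of them, covering 250 bases before to 50 after the start, all on the minus strand. Capitals mark matches to TTNNGCAA, a form of the C/EBP site, in Saa3 (chr7:46715627-46715926) and Lcn2 (chr2:32387690-32387989), to the STAT site TTCNNNGAA in Socs3 (chr11:117969317-117969616), and to GGG and TTCC with any 3 bases between them, a form of the NF-kB site, in Lrg1 (chr17:56121897-56122196). Hp and Lbp are named only.
Saa3: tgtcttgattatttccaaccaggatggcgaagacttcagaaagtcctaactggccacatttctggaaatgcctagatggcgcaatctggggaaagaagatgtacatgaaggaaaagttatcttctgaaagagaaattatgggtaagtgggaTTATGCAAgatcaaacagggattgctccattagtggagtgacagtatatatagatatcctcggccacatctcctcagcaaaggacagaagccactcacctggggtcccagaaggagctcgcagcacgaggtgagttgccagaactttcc
Lcn2: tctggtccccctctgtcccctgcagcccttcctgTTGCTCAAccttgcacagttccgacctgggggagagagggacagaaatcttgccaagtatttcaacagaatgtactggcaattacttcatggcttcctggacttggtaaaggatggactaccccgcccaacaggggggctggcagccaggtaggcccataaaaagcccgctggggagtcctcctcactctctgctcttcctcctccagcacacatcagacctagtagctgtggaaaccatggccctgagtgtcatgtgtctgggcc
Socs3: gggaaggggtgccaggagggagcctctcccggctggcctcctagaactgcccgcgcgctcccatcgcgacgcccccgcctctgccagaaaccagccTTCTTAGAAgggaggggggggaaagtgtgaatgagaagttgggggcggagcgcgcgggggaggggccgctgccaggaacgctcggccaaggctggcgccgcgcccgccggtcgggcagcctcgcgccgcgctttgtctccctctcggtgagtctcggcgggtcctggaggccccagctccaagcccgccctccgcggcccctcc
Lrg1: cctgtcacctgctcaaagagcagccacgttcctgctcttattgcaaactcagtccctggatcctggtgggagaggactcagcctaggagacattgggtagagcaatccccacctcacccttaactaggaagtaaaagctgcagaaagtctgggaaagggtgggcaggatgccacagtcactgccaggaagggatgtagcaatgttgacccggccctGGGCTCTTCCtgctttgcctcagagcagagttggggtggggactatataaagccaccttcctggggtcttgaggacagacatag

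Both strands were searched for the 3 motifs. The C/EBP form occurs in 10.8% of 32851 promoters of this length, the STAT form in 8.3% and the NF-kB form in 5.56%, so each is common by itself. The match in Saa3 begins 99 bases before the start on the gene's own strand, and that in Lcn2 216 bases before it on the opposite strand. The match in Socs3 lies 154 bases before the start, and that in Lrg1 34 bases before it.

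Saa3, a serum amyloid A made outside the liver, was at 77.8, 44.6 and 65.9 FPKM in treated colon, against 31.2, 9.2, 6.62 and 12.5 FPKM in uninjected colon. Its lowest treated library stood above uninjected 1, the highest of the other group, and the log2 difference was 2.25 (95% interval 1.12 to 3.37). Lrg1, a secreted glycoprotein of inflammation, was at 43.3, 31.2 and 60.5 FPKM in treated colon, against 8.47, 9.46, 17.4 and 5.07 FPKM in uninjected colon. All treated libraries stood apart from all uninjected ones, by a log2 difference of 2.18 (95% interval 1.22 to 3.13; adjusted p 1, limma). Hp, the haemoglobin-binding protein haptoglobin, was at 173, 77.5 and 104 FPKM in treated colon, against 8.19, 3.71, 76.6 and 9.06 FPKM in uninjected colon. Uninjected 3, the library with liver transcripts, nearly reached treated 2, while the other 3 uninjected libraries stayed below 10 FPKM. The log2 difference of Hp was 3.13 (95% interval 1.18 to 5.08; adjusted p 0.9995, limma). Without uninjected 3 it was 3.99 with an adjusted p of 0.0363 (limma), and it passed with no other single library left out. Treated 1 had liver transcripts too. In treated 2 and 4, where Hp was at 77.5 and 104 FPKM, Alb was at 0.76 and 0.499 FPKM and Hpx at 1.2 and 0.26 FPKM. A part of liver transcripts in the Hp values was not tested.

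Lcn2, an iron-sequestering antimicrobial protein, was at 11.3, 4.5 and 76.7 FPKM in treated colon, against 2.77, 3.31, 1.18 and 1.69 FPKM in uninjected colon. Treated 4 was far above the rest, and treated 2 was just above the highest uninjected library. The difference of 2.67 was 1.56 without treated 4. Socs3, the feedback inhibitor of Stat3 signalling, was at 12, 12.3 and 17.2 FPKM in treated colon, against 7.06, 5.78, 6.57 and 6.32 FPKM in uninjected colon. Both groups were tight, and the log2 difference was 1.03 (95% interval 0.43 to 1.63; adjusted p 1, limma). Lbp, which binds bacterial lipopolysaccharide, was at 3.33, 3.1 and 7.22 FPKM in treated colon, against 2.78, 2.14, 0.944 and 1.82 FPKM in uninjected colon. Its separation was narrow, with treated 2 close above uninjected 1, and the difference of 1.03 was 0.68 without treated 4.

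The list was not uniform. Saa1, the main serum amyloid, was at 438, 724 and 434 FPKM in treated colon, against 2025, 1514, 552 and 210 FPKM in uninjected colon, with a difference of -0.58 inside a wide uninjected range. Orm1, a liver acute phase protein, was at 3.64, 0.307 and 0.905 FPKM in treated colon, against 2.65, 1.05, 36.9 and 2.71 FPKM in uninjected colon. Its high value was that of uninjected 3, the library with liver transcripts. Stat3 itself, at 30.4, 24.6 and 37.8 FPKM in treated colon against 35, 30.3, 23.8 and 31 FPKM in uninjected colon, overlapped throughout. Il6, the cytokine that drives the response, was below the filter, at 0.132, 0.473 and 1.47 FPKM in treated colon and listed at 0 in all 4 uninjected ones. Serpina3n, an inhibitor of serine proteases that belongs to the same response but was on no list, was at 46.1, 23.4 and 146 FPKM in treated colon, against 4.98, 13.2, 2.8 and 8.02 FPKM in uninjected colon. Its groups did not overlap, with a log2 difference of 3.01 (95% interval 1.51 to 4.51), or 2.30 without treated 4 and 1.95 without uninjected 3 as well.

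Chemokines known to attract monocytes and neutrophils were among the separated genes. Of 19 tested chemokine genes 15 were higher and 4 lower, with a median of 0.71, and 3 did not overlap (15.8%, against 1.03% of all genes tested). Ccl2, the main attractant of monocytes, was at 14.4, 18.5 and 27.7 FPKM in treated colon, against 1.27, 2.17, 5.25 and 1.57 FPKM in uninjected colon. The lowest treated library was well above the highest uninjected one, and the log2 difference was 2.87 (95% interval 1.85 to 3.89; adjusted p 0.53, limma). Without uninjected 3 it was 3.23 with an adjusted p of 0.0363 (limma). Ccl7, its neighbour in the gene cluster and in function, was at 8.23, 10.8 and 20.1 FPKM in treated colon, against 0.847, 1.84, 2.62 and 1.67 FPKM in uninjected colon, a difference of 2.56 (95% interval 1.62 to 3.49). Cxcl5, a neutrophil attractant, was at 0.853, 4.1 and 7.79 FPKM in treated colon, against 0.452, 0.29, 0.603 and 0.44 FPKM in uninjected colon, so treated 1 stood only just clear. Ccl25, which draws lymphocytes to the gut, overlapped, at 6.02 to 7.71 FPKM in treated libraries against 4.57 to 28.9 FPKM in uninjected ones.

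Ccr2, the receptor for Ccl2 and Ccl7 on monocytes, was at 4.46, 4.76 and 8.27 FPKM in treated colon, against 0.599, 0.873, 0.972 and 1.97 FPKM in uninjected colon. The groups were well apart, with a log2 difference of 2.00 (95% interval 1.10 to 2.90). Of 17 macrophage and myeloid markers tested, 16 were higher and 1 lower, with a median of 0.69, and 3 did not overlap, namely Mrc1, Itgam and Tyrobp (17.6%, against 1.03% of all genes tested). Mrc1, the mannose receptor of tissue macrophages, was at 5.64, 7.15 and 10.2 FPKM in treated colon, against 0.836, 1.74, 1.57 and 4.4 FPKM in uninjected colon. Tyrobp, an adaptor of myeloid receptors, was at 48.3, 43.8 and 40.4 FPKM in treated colon, against 11.4, 38, 23.2 and 19.6 FPKM in uninjected colon. Its treated values were close together, just above the highest uninjected library. The abundant lysozyme gene Lyz2 overlapped, with a difference of 0.54, and the summed markers were at 727 to 803 FPKM in treated libraries and 459 to 901 FPKM in uninjected ones. In these bulk libraries, more cells of a type and more RNA per cell cannot be told apart.

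F13a1, the subunit of clotting factor XIII that macrophages make, was at 6.95, 7.97 and 15.5 FPKM in treated colon, against 1.1, 1.83, 0.812 and 4 FPKM in uninjected colon. Ifi205, an interferon-inducible gene of myeloid cells, was at 4, 9.58 and 9.83 FPKM in treated colon, against 0.388, 0.631, 0.544 and 2.5 FPKM in uninjected colon. Lilrb4, an inhibitory receptor of myeloid cells, was at 3.33, 4.12 and 6.84 FPKM in treated colon, against 0.127, 0.796, 1.02 and 1.35 FPKM in uninjected colon. In all 3 genes the groups did not overlap, with log2 differences of 2.22, 2.54 and 2.04. With the labelled sex as a covariate these were 1.16 for F13a1 and 1.37 for Ifi205, and 0.70 for Mrc1 and 1.31 for Ccr2.

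Among neutrophil markers, Retnlg was far apart between the groups. Retnlg, a resistin-like secreted protein, was at 7.78, 6.51 and 7.84 FPKM in treated colon, against 0.134, 0.572, 0.802 and 0.807 FPKM in uninjected colon. The log2 difference was 2.92 (SE 0.372, 95% interval 2.08 to 3.76; adjusted p 0.171, limma). S100a8, a calcium-binding protein that fills the neutrophil cytosol, was at 5.63, 94.7 and 57.9 FPKM in treated colon, against 0.284, 0.974, 6.83 and 0.458 FPKM in uninjected colon. Treated 1 lay just below uninjected 3 and the other 2 treated libraries far above, for a difference of 4.26 (95% interval 1.92 to 6.60). Its partner S100a9 followed it, at 0, 12.8 and 7.61 FPKM in treated colon, against 0, 0.421, 1.97 and 0 FPKM in uninjected colon. The primary granule genes Mpo and Elane were at most 0.305 FPKM, and the granule gene Ngp was listed at 0 in all 7 libraries. Mmp9, a granule protease, was at 1.91, 1.76 and 1.1 FPKM in treated colon, against 0.753, 0.377, 0.588 and 0.488 FPKM in uninjected colon. Mmp8 was at 0.0689, 0.198 and 2.56 FPKM in treated colon, against 0.0244, 0.0209, 0 and 0.0196 FPKM in uninjected colon. In both the groups did not overlap, while Camp and Ltf, at most 0.96 and 0.892 FPKM, overlapped. Only 4 of 12 neutrophil markers in the table passed the filter, among them the chemokine receptor Cxcr2, at 3.24 to 5.38 FPKM in treated libraries against 3.31 to 4.96 FPKM in uninjected ones.

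Lymphocyte genes did not separate. T cell markers had a median of 0.14, with 8 of 10 tested higher, and B and plasma cell markers a median of -0.22 (-0.36 without uninjected 3), with 7 of 8 lower, none without overlap. Cd79a, a chain of the B cell receptor, was at 14.6, 15.4 and 4.81 FPKM in treated colon, against 23.1, 31.2, 17.5 and 8.73 FPKM in uninjected colon. Treated 1 and 2 lay between the lowest and the next uninjected libraries. Interferon-stimulated genes had a median of 0.37, with 11 of 16 higher, which ran from -0.27 to 0.70 as single libraries were left out. MHC class II genes had a median of -0.06, which likewise ran from -0.24 to 0.22.

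**Figure D3:**
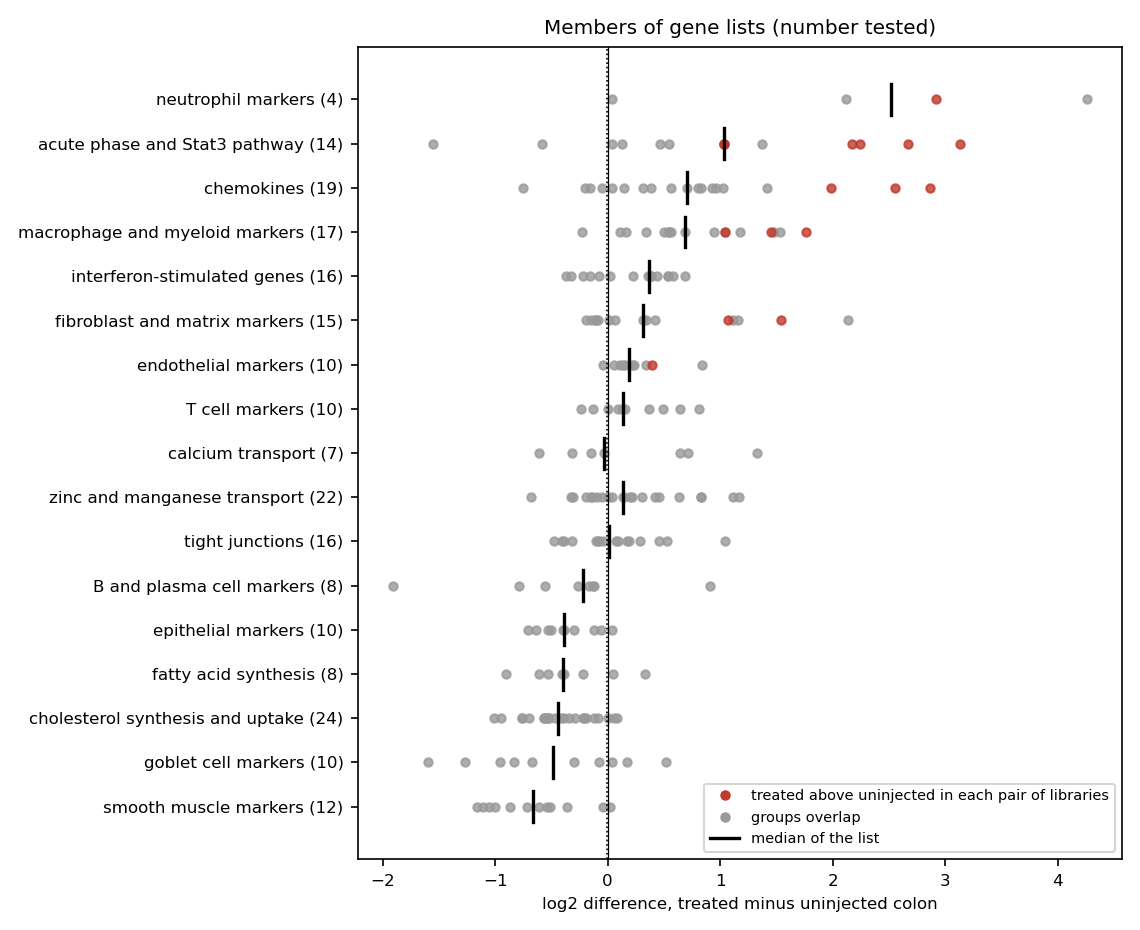
Log2 difference, treated minus uninjected colon, of the tested members of 17 gene lists, with the number tested in parentheses, the list median as a black bar, and members whose groups did not overlap in red (each treated library above each uninjected one); the dotted line is the median of all genes, -0.008. The acute phase list holds 6 red points, and chemokines and myeloid markers 3 each.

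Stromal genes went both ways. Lum and Dcn, small proteoglycans that organise collagen fibres, did not overlap (2 of 15 fibroblast and matrix markers, 13.3%, against 1.03% of all genes tested). Lum was at 21.1, 49.1 and 37.1 FPKM in treated colon, against 9.77, 15.3, 6.79 and 15.7 FPKM in uninjected colon. Dcn was at 106, 183 and 232 FPKM in treated colon, against 74.4, 86.5, 58.9 and 101 FPKM in uninjected colon. The log2 differences were 1.54 (95% interval 0.62 to 2.46) and 1.07 (95% interval 0.27 to 1.86). Col1a1, a chain of the main fibrillar collagen, overlapped, at 21.5 to 75.6 FPKM in treated libraries against 13.8 to 62.6 FPKM in uninjected ones. Over 15 fibroblast and matrix markers the median was 0.31, with 10 higher and 5 lower, and it ran from -0.24 to 0.68 as single libraries were left out.

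Of 12 smooth muscle markers 11 were lower in treated colon, with a median of -0.66, but no member separated the groups. Actg2, the actin of visceral smooth muscle, was at 330, 271 and 327 FPKM in treated colon, against 1919, 1333, 144 and 526 FPKM in uninjected colon. Cnn1, a regulator of its contraction, was at 149, 187 and 172 FPKM in treated colon, against 1077, 711, 106 and 246 FPKM in uninjected colon. The treated libraries sat close together between uninjected 3 below and uninjected 1 and 2 far above, so the spread is that of the uninjected group. Without uninjected 3 the list's median was -1.35, and without uninjected 1 the difference of Actg2, -1.10, was -0.59. Endothelial markers had a median of 0.19, which was -0.04 without uninjected 3.

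**Figure D4:**
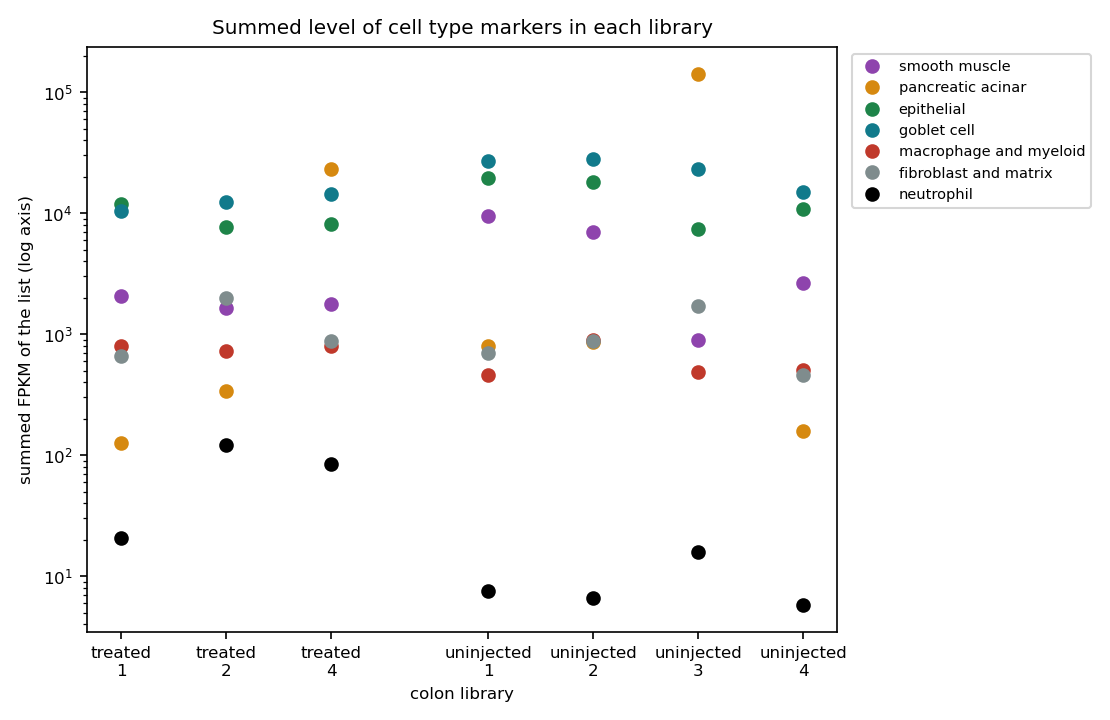
Summed FPKM (log axis) of 7 lists of cell type markers in each colon library, treated at the left and uninjected at the right. Smooth muscle sums are highest in uninjected 1 and 2 (9463 and 7033), acinar sums in treated 4 and uninjected 3, and neutrophil sums range from 20.8 to 120 in treated and from 5.77 to 16 in uninjected libraries.

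Epithelial genes were on balance somewhat lower in treated colon. Of 10 epithelial markers 9 were lower, with a median of -0.39, or -0.71 without uninjected 3, and 0 without overlap. Krt8, a keratin of simple epithelium, was at 3708, 2528 and 2102 FPKM in treated colon, against 7046, 6095, 2444 and 3582 FPKM in uninjected colon. Treated libraries lay near uninjected 3 and 4, and uninjected 1 and 2 stood above. Cdh1, the adhesion protein E-cadherin, was at 106 to 217 FPKM in treated libraries against 100.3 to 204 FPKM in uninjected ones. Colonocyte genes of ion and water transport were evenly divided, 10 higher and 10 lower, with a median of -0.05, or -0.36 without uninjected 3.

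Goblet cell genes, whose products form and protect the mucus layer, leaned the same way, with 7 of 10 lower and a median of -0.49. Zg16, a lectin that keeps bacteria out of the mucus, was at 2468, 4650 and 5623 FPKM in treated colon, against 11450, 12310, 11110 and 5580 FPKM in uninjected colon. Uninjected 4, the one labelled male, was the uninjected library inside the treated range. Its log2 difference was -1.27 (95% interval -2.33 to -0.21). Tff3, the trefoil peptide of goblet cells, was at 2607, 2497 and 3006 FPKM in treated colon, against 9512, 6020, 5407 and 2437 FPKM in uninjected colon, with the same library at the low end. Muc2, which makes the mucus gel itself, overlapped, at 526 to 1519 FPKM in treated libraries against 681 to 1530 FPKM in uninjected ones. With the labelled sex as a covariate, the difference of Zg16 was -0.48 and that of Tff3 changed sign to 0.15. That contrast rests on uninjected 4 alone, the library set apart for Zg16, and a part of sex was not tested.

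Guca2a, the peptide guanylin that drives chloride and water secretion, did separate. It was at 4240, 3159 and 3462 FPKM in treated colon, against 7549, 8955, 5965 and 4500 FPKM in uninjected colon. Treated 1 stood just below uninjected 4, and the log2 difference was -0.86 (95% interval -1.74 to 0.02; adjusted p 1, limma). With the labelled sex as a covariate, and so against uninjected 4 alone, it was -0.33.

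Fewer genes were lower in every treated library. Akr1b7, an aldo-keto reductase of aldehyde and prostaglandin metabolism, was at 2.78, 3.06 and 4.43 FPKM in treated colon, against 12.3, 8.15, 10.7 and 9.19 FPKM in uninjected colon. The groups were far apart for a lower gene, and the log2 difference was -1.44 (95% interval -2.10 to -0.78). Thrsp, a protein tied to fatty acid synthesis in liver and fat, was at 3.16, 2.31 and 1.3 FPKM in treated colon, against 72.4, 7.52, 5.58 and 11.1 FPKM in uninjected colon. Uninjected 1 was much the highest, and the difference of -2.43 became -1.65 without it. Ass1, which joins citrulline and aspartate on the way to arginine, was at 23.9, 16.8 and 18 FPKM in treated colon, against 77, 48.9, 36.6 and 26.8 FPKM in uninjected colon. Here too the groups did not overlap, with a difference of -1.16 (95% interval -2.02 to -0.30), or -0.46 with the labelled sex as a covariate.

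Grtp1, which is predicted to activate Rab GTPases, Suox, the mitochondrial sulfite oxidase, and Tmem97, a sterol-regulated membrane protein, were lower in every treated library by -0.67, -0.60 and -0.65. Tmem97 was at 60.2, 57.1 and 44.8 FPKM in treated colon, against 70.4, 122, 87.2 and 67.5 FPKM in uninjected colon. Genes of cholesterol synthesis and uptake lay mostly below 0, with 21 of 24 tested lower and a median of -0.44, but each gene's groups overlapped. Fdps, which makes farnesyl pyrophosphate, was at 165, 179 and 45.5 FPKM in treated colon, against 219, 324, 228 and 153 FPKM in uninjected colon. Treated 4 was far below the rest, and without it the difference of -1.01 was -0.38 and the list median -0.17. Fatty acid synthesis had 6 of 8 genes lower and a median of -0.40.

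5033404E19Rik, a gene whose function is not known here, was the most abundant of the 12 separated genes that led the higher direction by p. It was at 163, 135 and 154 FPKM in treated colon, against 46.9, 32.7, 90.9 and 32.1 FPKM in uninjected colon. The treated values were within a narrow band above all uninjected ones, and the log2 difference was 1.69 (95% interval 0.80 to 2.58). In KO colon its mean was 7.88 FPKM, below every transgenic library.

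The same treatment in the ileum of these transgenic mice, 3 treated against 3 uninjected libraries in a table scaled separately, gave 0 called genes of 11815 (0.0%) and 97 at an unadjusted p under 0.05 (0.821%). Cyp24a1 was at 3.94, 11.3 and 18.3 FPKM in treated ileum (libraries 1, 2 and 4), against 0.168, 0.466 and 0.00758 FPKM in uninjected ileum (libraries 1, 3 and 4), and its groups did not overlap there either. Its log2 difference of 3.85 in ileum was near the 4.54 in colon. Hp and Serpina3n differed by 4.34 and 3.74 in ileum, Saa3 by 2.47, Ccl2 by 1.75 and Retnlg by 2.24, each in the direction seen in colon. List medians were nearer 0 in ileum, at 0.24 for acute phase genes, 0.21 for chemokines, 0.11 for neutrophil and 0.24 for myeloid markers, against 1.03, 0.71, 2.52 and 0.69 in colon. That difference was not tested for the lists. Each median covers the members that passed the filter in its own tissue, so the members can differ. The colon median of neutrophil markers rests on 4 genes. Among them, Retnlg averaged 0.58 FPKM in uninjected colon and passed the filter through its treated level.

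A single limma fit of colon and ileum together tested whether the effect differed between them. No gene of 12437 passed (0.0%), 28 stood at an unadjusted p under 0.05 (0.225%), and the smallest adjusted p was 1. Socs3 differed by 1.03 in colon and by -0.18 in ileum, a gap of 1.21 (SE 0.382, unadjusted p 0.00762, adjusted p 1, limma). S100g differed by 1.33 in colon and by -1.38 in ileum, a gap of 2.71 with an unadjusted p of 0.0731 (limma). 5033404E19Rik differed by 1.69 in colon and by -0.03 in ileum, a gap of 1.72 with an unadjusted p of 0.159 (limma). None of these gaps passed the threshold after adjustment over the 12437 genes, so a difference between the tissues was not shown.

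**Figure D5:**
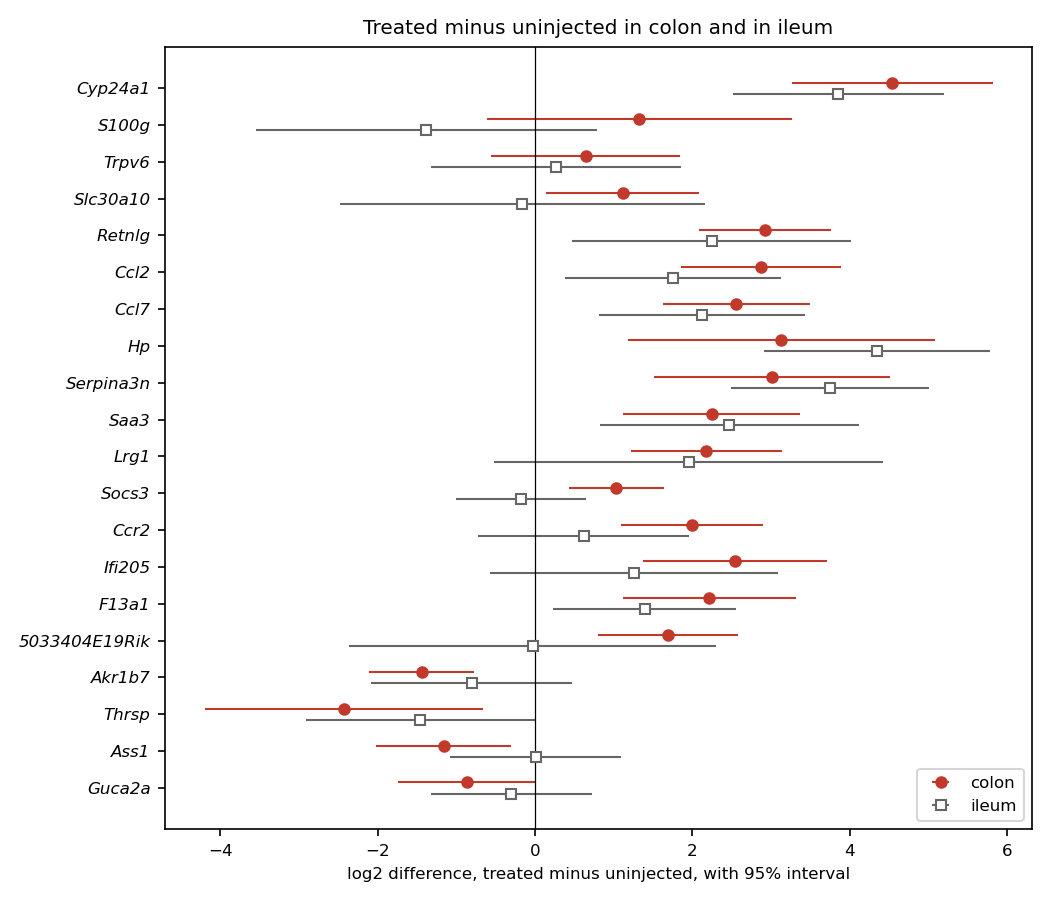
Log2 difference, treated minus uninjected, with its 95% interval, of 20 genes in colon (filled red circles) and in ileum (open squares). Cyp24a1, Retnlg, Ccl2, Ccl7, Hp, Serpina3n, Saa3 and F13a1 lie to the right of 0 in both tissues with intervals that do not reach 0. The points of S100g, Slc30a10, Socs3 and 5033404E19Rik lie to the right in colon and to the left of 0 in ileum. The ileum intervals of S100g, Slc30a10 and 5033404E19Rik include 0, as does the colon interval of S100g.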

How the data were processed

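RNA from colon and ileum was sequenced in 21 libraries, and per the labels' protocols reads were mapped with CLC Genomics Workbench. The values are FPKM, deposited by the authors in tables that were scaled separately. Per the submitters' processing notes the genome build was mm9, and the tools listed include DESeq2, DESeq 1.14.0 and kallisto 0.45.0, whose use is not stated. How FPKM was computed is not given. Of 6 tables, 3 were used, those of transgenic colon, transgenic ileum and KO colon. KO colon was divided by 0.9931, since the uninjected colon libraries that stand in both colon tables were there at 0.9893 to 0.9985 of their values in the transgenic table. In the colon file, 25 symbols read as dates and were kept as they stand, and 20679 genes carry mm9 coordinates.

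Depth was not stated. FPKM steps gave whole reads for 15475 of 18586 genes above 0 (83.3%; relative tolerance 1e-11, denominators up to 60000), whose sum gives a lower limit of depth and which the read-based alternative used. Per-gene intervals rest on the spread between libraries. The labels number libraries without naming litters or cultures as shared, and the treated columns (1, 2 and 4) could not be tied to single samples. Design text in the series counts 4 treated and 3 uninjected colons, while the sample labels and the columns show 3 and 4, and the labels were used.

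Genes averaging 1 FPKM or more were fitted as log2(FPKM + 0.5) with limma 3.58.1 in R 4.3.3 (intensity trend, Benjamini-Hochberg adjustment over all genes tested, threshold 0.05). This scale understates changes of low genes. Colon and ileum were set against each other in 1 fit with an interaction term. The procedure was tested on simulated data. Sums, ranges, exact permutation tests and figures used Python 3.11.15, numpy 2.4.6, pandas 2.3.3, scipy 1.17.1 and matplotlib 3.10.9.

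Genes and the 39 gene lists (539 entries, 533 in the table) were chosen with earlier results of these data known. Genes named were Vdr and the qPCR genes of the protocol, the 12 smallest p per direction among non-overlapping genes averaging 2 FPKM or more in the higher group, up to 3 genes of each list by p, genes called with 1 library left out (up to 6 for each), up to 4 per direction for the difference between tissues, and sex-linked genes. Others were chosen after their values were seen, as were the seminal vesicle, liver and colon position genes. The same holds for the motifs and for 2 alternatives, the array weights fitted gene by gene and the fit without uninjected 3 and treated 4. Tested alternatives were the pseudocount, the filter, the scaling, weights, covariates, read-based values and single libraries left out.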

Additional observations from a re-analysis of the deposited data

Results flagged for a closer look

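In the uninjected group, 6 of 143 genes named by rule and 8 of 29 genes added after their values were seen had 1 library set apart from the other 3, its gap to the nearest of them over the whole range being above Dixon's 95% critical value. Chance gives about 1 in 20, and the 8 were in large part picked for such values, so their number says nothing against chance. The 3 treated libraries were too few for the same test.

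Uninjected 3 stood apart for Alb at 334 FPKM (others 0.292 to 1.35 FPKM), Hpx at 406 FPKM (others 0.0514 to 0.182 FPKM), Mup3 at 305 FPKM (others 0 to 0.031 FPKM) and Ccl25 at 28.9 FPKM (others 4.57 to 5.4 FPKM). The first 3 are liver genes. Kap, known from mouse kidney, was at 4.57 FPKM there (others 0 to 0.216 FPKM). Uninjected 4, labelled male, stood apart for seminal vesicle genes at low levels, Svs2 at 0.79 FPKM (others listed at 0), Svs4 at 1.94 FPKM (others 0 to 0.146 FPKM) and Svs5 at 2.26 FPKM (others 0 to 0.134 FPKM). In the same library Zg16 was at 5580 FPKM (others 11100 to 12300 FPKM), Rxrb at 11.3 FPKM (others 21.8 to 24.7 FPKM) and BC017612 at 3.07 FPKM (others listed at 0). In uninjected 1, Hspa5 was low at 75.7 FPKM (others 210 to 257 FPKM), as was Cd3g at 1.93 FPKM (others 4.27 to 4.37 FPKM). Xist, the RNA of the inactive X chromosome, was at 5.98 FPKM in uninjected 2, against 0.0549 to 0.26 FPKM in the other 3 uninjected libraries, 2 of which are also labelled female. Why these libraries stood apart was not tested.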

How the results depend on the processing

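The count of genes past an adjusted p of 0.05 in colon, 0 as reported, was also 0 with pseudocounts of 0.1 and 1, a filter at 5 FPKM, no intensity trend, either other scaling, labelled sex as a covariate, GC and length trend removed, without uninjected 1 and 3, and in reads recovered from FPKM (voom, 9956 genes). It was 1 with no filter (Il7r, 18586 genes), 4 with KO colon libraries in the fit (Retnlg, Cyp24a1, Ccl2 and Ccl7), 1411 with array weights and 3 with weights fitted gene by gene (Cyp24a1, Retnlg and Ccl2). The 1411 (889 higher, 522 lower) rest on weights of 5.46 for treated 1 and 6.75 for uninjected 2, with at most 0.73 for the others, from a fit that did not converge. Without uninjected 3 and treated 4 it was 1 (Cyp24a1), and leaving out single libraries gave 0 to 4, the 4 without uninjected 3. Between 58 and 4350 genes stood at an unadjusted p under 0.05 across these settings. A replicate block, in which uninjected 3 has no partner, gave 1 (Hp, 3.99). Deviations of same-numbered libraries correlated at 0.22, 0.07 and 0.39, and those of other-numbered ones at -0.53 to 0.32. Whether the numbers pair the libraries was not settled by these values.

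For colon minus ileum the count was 0 under every alternative run, the replicate block included, except that single libraries left out gave 0 to 1 (Gm4925, without uninjected ileum 4). The sex covariate was not run there, since ileum columns could not be tied to samples. Of 143 genes followed through the alternatives in colon, 46 changed sign at least once, in 81 values, among them Mki67, Cd79a and S100a9. Of the genes in the text with a printed difference, 3 changed sign in 4 alternatives. With labelled sex as a covariate, in which the contrast rests on uninjected 4, Vdr was -0.23, Tff3 0.15 and Saa1 1.30, and Vdr was -0.05 without uninjected 3 and treated 4. The cause was not tested. Of 545 list medians under alternatives 59 changed sign, in 23 of 39 lists and most often for iron handling (8) and calcium transport (5), whose medians lay near 0. Quantile scaling shifted the median of all genes by -0.03. With 3 against 4 libraries, unadjusted 95% intervals reached about 0.9 to either side, and after adjustment differences well above that size were not called.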

Other observations

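Regenerating and secretory cells were not described above. Of 19 cell cycle genes 15 were higher in treated colon, with a median log2 difference of 0.21, which ran from -0.08 to 0.56 as single libraries were left out, and in each gene the groups overlapped. Mki67, the marker of cycling cells, was at 16.4, 12.2 and 20 FPKM in treated colon, against 2.84, 3.12, 17.3 and 22 FPKM in uninjected colon. Uninjected 1 and 2, the libraries with the most smooth muscle transcripts, were the low ones. Stem cell and Wnt target genes had a median of -0.04 (4 higher, 8 lower; -0.15 without uninjected 3) and tuft cell markers one of 0.04 (4 higher, 2 lower; -0.17 without uninjected 3).

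Of 11 enteroendocrine markers 8 were higher and 3 lower, with a median of 0.30, or 0.09 without uninjected 3. Nts, the peptide neurotensin, was at 59.2, 63.8 and 31.2 FPKM in treated colon, against 6.66, 3.31, 66 and 42 FPKM in uninjected colon. Insl5, a peptide hormone of distal colon cells, was at 9.24, 53 and 148 FPKM in treated colon, against 274, 231, 84.9 and 46.4 FPKM in uninjected colon. Its lowest library was treated 1, in which Hoxb13 was also near 0. Paneth cell and antimicrobial genes had a median of 0.13 (7 higher, 4 lower), which ran from -0.12 to 0.61 as single libraries were left out, with 0.61 without uninjected 3, and Reg3b, a lectin that kills bacteria, was at 7174, 753 and 2528 FPKM in treated colon, against 797, 379, 3135 and 1288 FPKM in uninjected colon.

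Of 10 enteric neuron and glia markers 7 were lower, with a median of -0.31 (-0.60 without uninjected 3, and up to 0.10 with another library left out). In the other direction 1 of them did not overlap (10.0%, against 1.03% of all genes tested). That was Gfap, the filament protein of glia, at 5.71, 5.3 and 5.71 FPKM in treated colon, against 5.14, 2.66, 0.607 and 2.62 FPKM in uninjected colon. Treated libraries were close together, just above uninjected 1. The protocol's qPCR genes other than Trpv5 were 5, all higher, with a median of 1.11. The median was 0.20 for xenobiotic metabolism and efflux (10 higher, 8 lower), 0.05 for unfolded protein and amino acid stress (8 higher, 6 lower), -0.08 for the glucocorticoid response (3 higher, 8 lower) and -0.14 for immediate early genes (2 higher, 9 lower). As single libraries were left out these ran from -0.07 to 0.43, from -0.12 to 0.30, from -0.32 to 0.10 and from -0.29 to -0.14. Both tested red blood cell genes were lower, with a median of -0.82. Pancreatic acinar genes had a median of -0.29 that was 2.22 without uninjected 3 and -2.97 without treated 4. All 4 tested sex-linked genes averaged higher in the treated libraries, which are labelled male. Of these, Eif2s3y did not overlap (25.0%, against 1.03% of all genes tested), while Ddx3y, Kdm5d and Uty overlapped between the groups.

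The circadian clock list had a median of 0.08 (11 higher, 6 lower), which was 0.39 without uninjected 1 and -0.38 without uninjected 3. Dbp, a clock output factor, was at 34.8 to 46.6 FPKM in treated colon, against 249, 42.9, 5.2 and 38 FPKM in uninjected colon, so both extremes were uninjected libraries. Kap, a gene known for androgen-regulated expression in mouse kidney, was at 148 FPKM in treated 2 and at most 4.57 FPKM elsewhere. Dbp and Kap were singled out after their values were seen.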
